A study of Mus musculus with 18 samples.

Results

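The interferon regulatory factors (IRFs) are a family of transcription factors that bind interferon-responsive DNA. Their mRNA was followed here in bone marrow-derived macrophages (BMDMs) with and without prolyl endopeptidase (PREP). The 8 genes *Irf1*, *Irf2*, *Irf3*, *Irf4*, *Irf5*, *Irf7*, *Irf8* and *Irf9* were taken by symbol from a count table of 16314 genes, and all 8 were among the 12021 genes expressed highly enough to be tested. The rule names them by symbol and uses no measured value, although the members were chosen with earlier results of these data known.

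The study asked how loss of PREP, a prolyl-specific peptidase, alters gene expression in quiescent and polarized macrophages. Bone marrow cells from the femora of *Prep*-/- mice and of their heterozygous *Prep*+/- littermates, on a C57BL6/J background, were cultured for 7 days with 50 ng/ml M-CSF, the growth factor that turns precursors into macrophages. All cells of a knockout animal carried the deletion, and the controls also carried 1 disrupted allele, so that no wild-type cells were compared. The age of the marrow donors is not given in the sources used here. BMDMs were then left untreated (M0), treated with 50 ng/ml LPS (M1), or treated with 20 ng/ml IL-4 together with 20 ng/ml IL-13 (M2) for 24 h. Polyadenylated RNA of each culture was sequenced in bulk, with 3 libraries that the study calls biological replicates in each of the 6 groups.

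IRF3 and IRF7 are held in the cytoplasm until Toll-like receptors or nucleic acid sensors trigger their phosphorylation, and they then switch on the interferon beta gene. Secreted interferon signals back through the complex ISGF3, of which STAT2 and IRF9 are subunits, and this complex induces interferon-stimulated genes, *Irf7* among them. IRF1 and IRF2 compete for similar DNA elements, IRF5 drives inflammatory cytokine genes, and IRF4 and IRF8 bind DNA with PU.1, the lineage-determining factor of macrophages.

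Total counts ranged from 19068237 to 22598279 per library, and a normalized count is a count divided by the TMM-scaled size of its library relative to the mean of the 18 libraries. Differences are given as log2 fold changes with their standard error (SE). A gene was called when the edgeR adjusted p, from a quasi-likelihood model of all 18 libraries with Benjamini-Hochberg adjustment, was under 0.05 and the fold change was over 1.5. *Prep* itself fell in the knockout in every state, with a log2 fold change of -4.29 in M0, -3.74 in M1 and -3.77 in M2. The third replicates of *Prep*-/- M0 and *Prep*-/- M2 stood apart from their groups, with a chi-square per degree of freedom of 106 to 114 against the other replicates, where the remaining pairs of these groups were at 33.7 and 11.6. The summed macrophage markers (8 of 8 genes) differed between genotypes without overlap, at 19100 to 22700 CPM in *Prep*+/- and 30800 to 48700 CPM in *Prep*-/- M0, 45100 to 46400 against 31100 to 36900 CPM in M1, and 10200 to 12400 against 14000 to 19700 CPM in M2. Most of each sum was *Lyz2*, at 14800 to 18700 against 25300 to 39300 CPM in M0, and other markers did not all follow it. *Cd68* overlapped in M0 (1010 to 1100 against 847 to 1040 CPM). In M1, where the sum was lower in the knockout, *Cd68* was higher (855 to 1010 against 1100 to 1480 CPM). Of the markers of other cells, the B cell and plasma cell list (5 of 9 genes in the table) lay at 3.13 to 4.92 CPM in *Prep*+/- M0 and 8.87 to 12 CPM in *Prep*-/- M0, nearly all of it *Cd79b*, whereas *Cd79a* and *Ms4a1* did not exceed 0.168 CPM in any library. In M1 the list lay at 2.06 to 2.59 against 5.14 to 6.96 CPM, and in M2 at 1.61 to 2.81 against 1.29 to 4.75 CPM. The T and NK cell list (4 of 9 genes) moved from 1.08 to 1.14 CPM in *Prep*+/- M0 to 8.4 to 30 CPM in *Prep*-/- M0, nearly all of it *Cd4*, while *Cd3d* stayed at or under 0.0479 CPM in all libraries. The same list lay at 0.899 to 1.67 against 3.23 to 4.68 CPM in M1 and at 0.256 to 0.797 against 1.65 to 2.78 CPM in M2. Granulocyte precursor markers (9 of 9 genes) lay at 23.9 to 29.8 CPM in *Prep*+/- M0 and at 48.2 to 110 CPM in *Prep*-/- M0. They lay at 59.7 to 104 against 36.7 to 49.7 CPM in M1 and at 16.3 to 18.5 against 19.2 to 30.4 CPM in M2. These sums were carried mostly by *Ngp*, *Ltf* and *S100a8*, whereas *Mpo*, *Elane*, *Prtn3*, *Ctsg* and *Ly6g* did not exceed 1.23 CPM in any library. The plasmacytoid dendritic cell list (7 of 8 genes) lay at 202 to 269 CPM in *Prep*+/- M0 and 296 to 556 CPM in *Prep*-/- M0, carried by *Bst2* and *Tcf4*, with the defining marker *Siglech* at or under 0.670 CPM everywhere. It was lower in the knockout in M1 (1570 to 2250 against 1330 to 1540 CPM) and in M2 (270 to 405 against 198 to 258 CPM). The conventional dendritic cell list (9 of 9 genes) lay at 1.84 to 6.74 CPM in M0 and 27.3 to 35.7 CPM in M2, carried by *Batf3*, with *Flt3* and *Xcr1* at or under 0.522 CPM. Erythroid, stromal, and mast cell and basophil markers did not exceed 20.7 CPM. The part of these cells in the results below was not tested.

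On the mouse genome GRCm39 with the GENCODE M39 annotation, the 8 protein-coding genes lie on 6 chromosomes. *Irf1* spans chr11:53660812-53669200 with 10 exons, *Irf2* chr8:47192222-47300501 with 9 exons, *Irf3* chr7:44647033-44652272 with 8 exons, and *Irf4* chr13:30933209-30950959 with 9 exons, all on the plus strand. *Irf5* spans chr6:29526276-29541870, *Irf8* chr8:121463096-121485659 and *Irf9* chr14:55841028-55847812, each with 9 exons on the plus strand, and *Irf7* lies on the minus strand at chr7:140842619-140846398 with 10 exons. *Irf9* shares 282 bases with *Rnf31* on the same strand, so that reads of that stretch cannot be assigned to either gene with certainty. *Irf3* overlaps *Bcl2l12* by 1104 bases, *Irf5* overlaps *Tnpo3* by 1047 bases and *Irf7* overlaps *Phrf1* by 63 bases, each on the opposite strand. *Irf1* lies whole within the opposite-strand lncRNA gene *Gm12216*, with 8389 shared bases, and overlaps 2 further opposite-strand genes, and *Irf2* overlaps 5 such genes by up to 3499 bases, none of them in the count table. The library kit keeps strand, but the strand setting of the counting is not given in the sources used here.

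The 250 bases before the start of the canonical transcript were searched on both strands for an ISRE-type pair of IRF half-sites, GAAANNGAAA, and for a GAS-type STAT site, TTCNNNGAA. The ISRE-type letters occurred in 3.16% and the GAS-type letters in 6.65% of 11598 promoters of tested genes. GAS-type matches were present in *Irf1*, *Irf2* and *Irf8*, with a pair of them in *Irf8*, and *Irf2* alone of the 8 held an ISRE-type match. The upstream stretches of *Irf1*, *Irf2* and *Irf8* are shown because these genes hold the matches, and that of *Irf7* because this gene had the largest rise in the M0 knockout comparison. All read 5′ to 3′ on the strand of the gene, with capitals marking ISRE-type and GAS-type matches. Those of *Irf1* and *Irf8* end at positions -30 and -2 relative to the canonical start, just before the annotated span of the gene begins. For *Irf2* a stretch of 30 bases around the matches is shown. It lies inside the annotated span of the gene because another transcript starts further upstream.
Irf1, chr11:53660591-53660811, plus strand: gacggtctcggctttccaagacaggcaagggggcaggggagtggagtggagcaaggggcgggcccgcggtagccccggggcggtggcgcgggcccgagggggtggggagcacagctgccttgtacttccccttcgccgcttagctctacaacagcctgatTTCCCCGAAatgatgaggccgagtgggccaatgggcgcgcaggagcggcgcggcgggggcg
Irf2, chr8:47192537-47192566, plus strand: gtGAAAATGAAAttgacttTTCCGAGAAat
Irf8, chr8:121462847-121463095, plus strand: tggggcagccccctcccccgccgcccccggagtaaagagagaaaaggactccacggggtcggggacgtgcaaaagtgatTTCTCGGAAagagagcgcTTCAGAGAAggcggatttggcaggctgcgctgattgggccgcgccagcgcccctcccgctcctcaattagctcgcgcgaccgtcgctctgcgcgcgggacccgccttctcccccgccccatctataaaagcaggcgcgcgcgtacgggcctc
Irf7, chr7:140846399-140846648, minus strand: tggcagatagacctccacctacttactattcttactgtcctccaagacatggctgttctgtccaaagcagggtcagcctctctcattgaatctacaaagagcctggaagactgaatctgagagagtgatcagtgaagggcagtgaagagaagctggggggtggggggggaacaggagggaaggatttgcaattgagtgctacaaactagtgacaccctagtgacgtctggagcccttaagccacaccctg
A match is a description of the letters and not of binding. Where no match is named, these letters were not in this window.

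**Figure D1:**
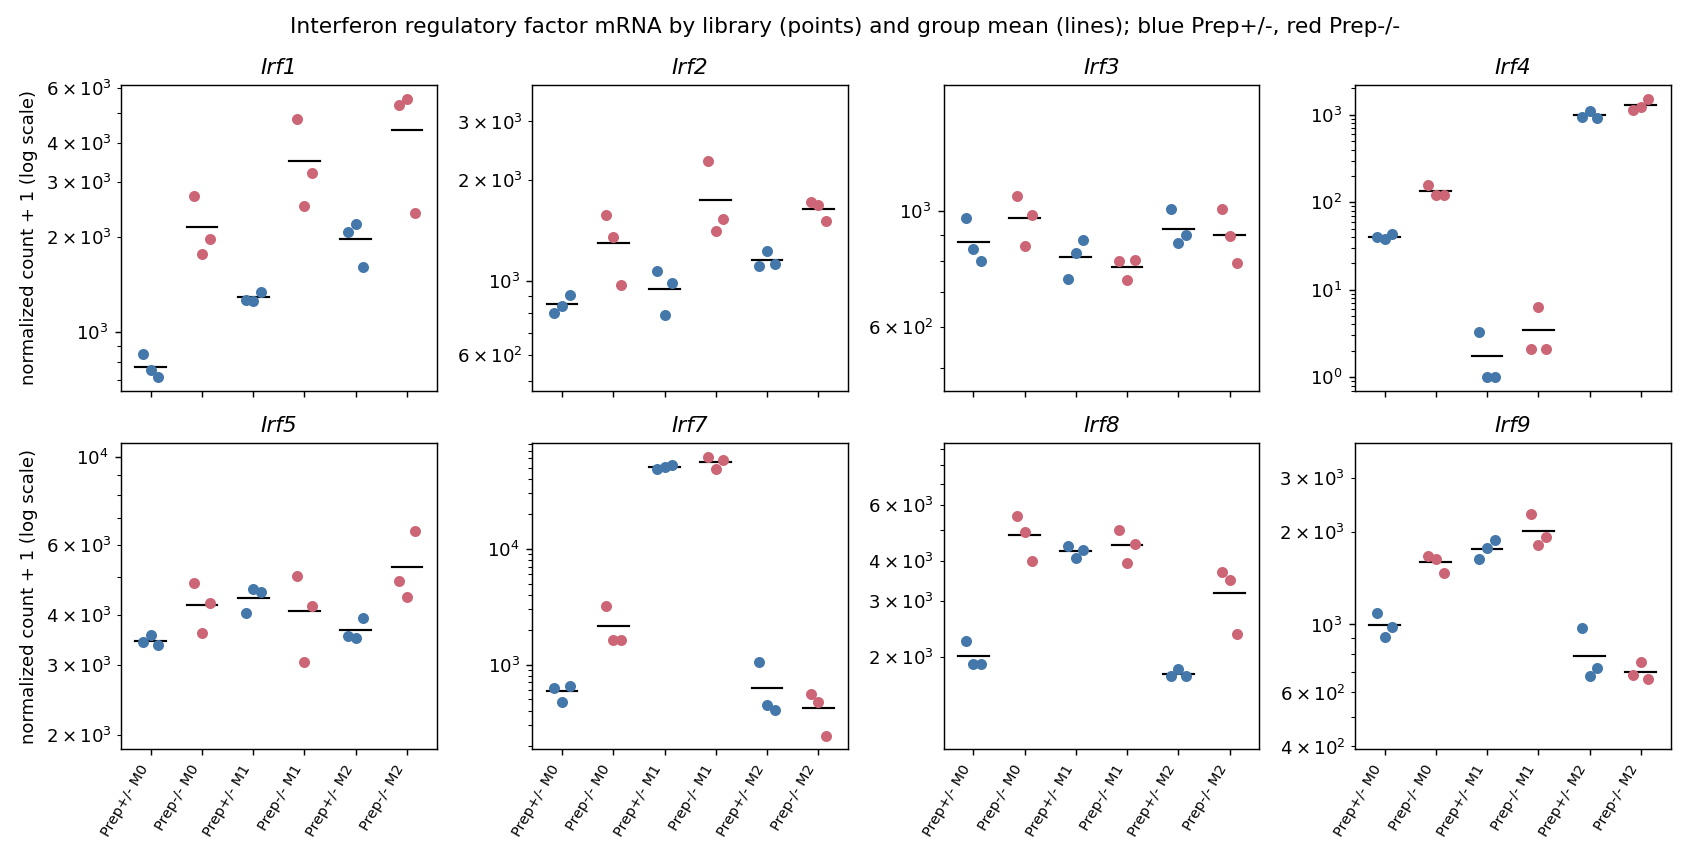
Normalized counts plus 1 (vertical axes, log scale) of the 8 interferon regulatory factors in each of the 18 libraries (points, replicates 1 to 3 from left to right) with the group mean (lines), *Prep*+/- in blue and *Prep*-/- in red. *Irf7* stood between 48566 and 61520 in M1, *Irf4* was highest in M2 and at or near 0 in M1, and *Irf3* stayed between 736 and 1067 in all groups.

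In unstimulated BMDMs, 6 of the 8 IRF genes rose in *Prep*-/- cells and none fell, where 15.4% of all genes tested were called higher and 17.2% lower. The median log2 fold change was 0.97 over the 8 genes and 0.02 over all genes. The largest rises were those of *Irf7*, *Irf4* and *Irf1*, at 3.70-fold, 3.37-fold and 2.79-fold, followed by *Irf8* at 2.39-fold, *Irf9* at 1.6-fold and *Irf2* at 1.53-fold. In M1, 2 of the 8 rose (*Irf1* and *Irf2*) against a background of 12.3% higher and 10.2% lower, and in M2 again 2 rose (*Irf1* and *Irf8*) against 6.37% higher and 9.82% lower. In none of these 3 comparisons was a member lower with edgeR at an unadjusted p under 0.05 or called lower by DESeq2 (0 of 8 each). Without the third replicate of *Prep*-/- M0, 6 members were higher in M0, and without that of *Prep*-/- M2, 2 were higher in M2. The M0 count was lower in other refits. *Irf2* was not called in M0 without *Prep*+/- replicate 1, *Prep*-/- replicate 1 or *Prep*-/- replicate 2. *Irf2* and *Irf9* were not called in M0 when a change over 1.5-fold was tested directly. In bulk RNA, fewer cells of a type and less RNA per cell cannot be told apart.

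**Figure D2:**
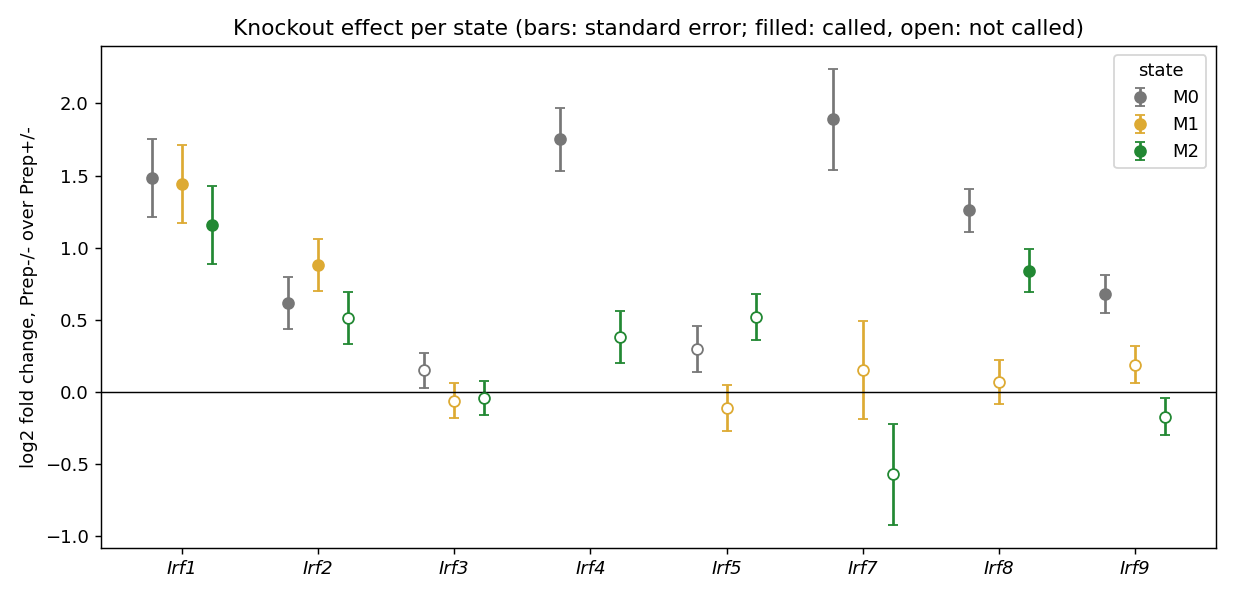
Log2 fold change of *Prep*-/- over *Prep*+/- (vertical axis) for each gene in M0 (grey), M1 (yellow) and M2 (green), with standard errors as bars, filled where called and open where not. *Irf4* in M1 is left out because it had 5 counts or fewer in each library. *Irf7*, *Irf8* and *Irf9* sat well above 0 in M0 and between -0.57 and 0.19 in M1 or M2, except *Irf8* in M2 at 0.84, while *Irf1* sat above 1 in all 3 states.

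IRF3 is the constitutive, phosphorylation-activated sensor factor. Values are given in the order of replicates 1 to 3 throughout. M0 controls had 966, 844 and 802 normalized counts of *Irf3*, against 1067, 855 and 979 in knockout cells. With LPS these were 739, 828 and 878 against 801, 736 and 806, and with IL-4 and IL-13 they were 1008, 865 and 898 against 1009, 894 and 795. The genotypes overlapped in every state, and the ordered group means, from 967 ± 107 in *Prep*-/- M0 to 781 ± 38.6 in *Prep*-/- M1 (SD, n = 3 each), overlapped between all neighbours. The knockout log2 fold changes were 0.15 in M0, -0.06 in M1 and -0.04 in M2, each with an SE of 0.12, and edgeR adjusted p = 0.295, 0.703 and 0.849. From M0 to M1 in *Prep*-/- cells the log2 fold change of -0.31 had an edgeR adjusted p of 0.0326 but stayed under the fold change minimum.

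IRF7, the interferon-inducible amplifier of the type I interferon response, spanned 243 to 61520 normalized counts over the 18 libraries. In M0, *Prep*+/- cells had 630, 471 and 653 normalized counts, and *Prep*-/- cells had 3207, 1642 and 1635. Every *Prep*-/- library lay above every *Prep*+/- library, and *Prep*-/- replicate 1 was the highest. The log2 fold change was 1.89 (SE 0.35, edgeR adjusted p = 0.000401), from 585 ± 99.1 to 2161 ± 906 (SD, n = 3). Under LPS, controls had 48591, 50816 and 52913 and knockout cells 61520, 48566 and 58791, so that the genotypes overlapped, with a log2 fold change of 0.15 (SE 0.34, edgeR adjusted p = 0.753). With IL-4 and IL-13, controls had 1046, 442 and 405, against 558, 471 and 243 in knockout cells, again with overlap and with a log2 fold change of -0.57 (SE 0.35, edgeR adjusted p = 0.252). The order of the groups was *Prep*-/- M1 and *Prep*+/- M1 at the top, which overlapped, then *Prep*-/- M0 apart from all others, then *Prep*+/- M2, *Prep*+/- M0 and *Prep*-/- M2, whose libraries overlapped.

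IRF9 supplies the DNA contact of ISGF3. Unstimulated *Prep*+/- cells had 1087, 911 and 982 normalized counts of *Irf9*, all below the 1676, 1633 and 1471 of *Prep*-/- cells. The log2 fold change was 0.68 (SE 0.13, edgeR adjusted p = 0.00047). M1 controls had 1631, 1768 and 1884, against 2289, 1816 and 1932 in M1 knockout cells, and the values in M2 were 972, 679 and 721 against 682, 755 and 665. Both pairs of groups overlapped, at log2 fold changes of 0.19 in M1 (edgeR adjusted p = 0.254) and -0.17 in M2 (edgeR adjusted p = 0.366). *Rnf31*, which shares a stretch with *Irf9*, had log2 fold changes of 0.49 in M0, 0.90 in M1 and 0.09 in M2, of which the second was called (edgeR adjusted p = 0.000369). The order of the group means was *Prep*-/- M1, *Prep*+/- M1 and *Prep*-/- M0, which overlapped in turn, and then *Prep*+/- M0, *Prep*+/- M2 and *Prep*-/- M2, which overlapped in turn below a gap. With edgeR's glmTreat, which tests directly whether a change exceeds 1.5-fold, the *Irf9* call in M0 was lost (adjusted p = 0.32).

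IRF1 activates and IRF2 mostly restrains the same class of promoters, and these were the members raised in both M0 and M1. M0 controls had 844, 752 and 714 normalized counts of *Irf1*, against 2706, 1772 and 1967 in M0 knockout cells. In M1 they were 1263, 1252 and 1338 against 4760, 2508 and 3218, and in M2 2084, 2209 and 1607 against 5296, 5533 and 2382. The genotypes did not overlap in any state, although *Prep*-/- M2 replicate 3 was far below its group mates. The log2 fold change was 1.48 in M0 (SE 0.27, edgeR adjusted p = 0.000358), 1.44 in M1 (SE 0.27, edgeR adjusted p = 0.00102) and 1.16 in M2 (SE 0.27, edgeR adjusted p = 0.00482). Without *Prep*-/- M2 replicate 3 the M2 value was 1.47, and with glmTreat the M2 call was lost (adjusted p = 0.0842). The group means ran from 4404 ± 1755 in *Prep*-/- M2 through 3495 ± 1151 in *Prep*-/- M1, 2148 ± 493 in *Prep*-/- M0, 1967 ± 317 in *Prep*+/- M2 and 1284 ± 46.7 in *Prep*+/- M1 to 770 ± 66.8 in *Prep*+/- M0 (SD, n = 3), and the 3 *Prep*+/- groups did not overlap with each other while the *Prep*-/- groups and *Prep*+/- M2 overlapped in turn.

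For *Irf2*, *Prep*+/- M0 libraries held 802, 842 and 903 normalized counts, compared with 1576, 1356 and 972 in knockout libraries. In M1 there were 1067, 788 and 987 against 2286, 1413 and 1528, and in M2 1106, 1227 and 1118 against 1721, 1690 and 1512. Each *Prep*-/- library was above each *Prep*+/- library of its state, but the gap in M0 was narrow because *Prep*-/- replicate 3 was close to the controls. The log2 fold change was 0.62 in M0 (SE 0.18, edgeR adjusted p = 0.00986), 0.88 in M1 (SE 0.18, edgeR adjusted p = 0.00181) and 0.51 in M2 (SE 0.18, edgeR adjusted p = 0.0465), the last being under the fold change minimum. In the order of means, *Prep*-/- M1, *Prep*-/- M2, *Prep*-/- M0 and *Prep*+/- M2 overlapped in turn, as did *Prep*+/- M1 and *Prep*+/- M0 below them. The M0 value was just above that minimum, and it fell under it, at 0.58, 0.46 and 0.58, without *Prep*+/- replicate 1, *Prep*-/- replicate 1 or *Prep*-/- replicate 2. The M0 and M1 calls were also lost with glmTreat (adjusted p = 0.59 and 0.168). Within libraries, the log2 ratio of *Irf1* to *Irf2* counts lay between -0.34 and 0.07 in *Prep*+/- M0 and between 0.39 and 1.02 in *Prep*-/- M0, without overlap. In M1 the same ratio was 0.24 to 0.67 in *Prep*+/- and 0.83 to 1.07 in *Prep*-/- cells, and in M2 0.52 to 0.91 against 0.66 to 1.71, where the genotypes overlapped.

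IRF5, a factor of inflammatory macrophages that acts downstream of MyD88, was per kilobase the most abundant member in unstimulated cells. Its normalized counts in M0 were 3419, 3579 and 3362 in controls against 4814, 3616 and 4287 in knockout cells, with the lowest *Prep*-/- library next to the controls. They were 4056, 4655 and 4578 against 5018, 3063 and 4224 in M1, where the *Prep*-/- range enclosed that of the controls. In M2 they were 3548, 3507 and 3944 against 4886, 4441 and 6500, without overlap. The knockout log2 fold change was 0.30 in M0 (edgeR adjusted p = 0.149), -0.11 in M1 (edgeR adjusted p = 0.62) and 0.52 in M2 (edgeR adjusted p = 0.0281), each with an SE of 0.16. None reached the fold change minimum, and the M2 value was 0.36 without *Prep*-/- M2 replicate 3 (edgeR adjusted p = 0.0971) and 0.64, and called, without *Prep*-/- M2 replicate 2 (edgeR adjusted p = 0.0161). All neighbouring groups in the order of means, from 5275 ± 1083 in *Prep*-/- M2 to 3453 ± 112 in *Prep*+/- M0 (SD, n = 3), overlapped.

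IRF8, the PU.1 partner that sets up macrophage and dendritic cell genes, had 2238, 1903 and 1898 normalized counts in control M0 libraries, against 5523, 4931 and 4008 in knockout libraries. The groups were far apart, with a log2 fold change of 1.26 (SE 0.15, edgeR adjusted p = 9.96e-06). In M1 the counts were 4447, 4088 and 4346 against 5004, 3937 and 4538, with overlap and a log2 fold change of 0.07 (SE 0.15, edgeR adjusted p = 0.758). The M2 counts were 1741, 1836 and 1739 against 3704, 3476 and 2362, without overlap and with a log2 fold change of 0.84 (SE 0.15, edgeR adjusted p = 0.000761). That value was 1.03 without *Prep*-/- M2 replicate 3, the lowest *Prep*-/- library, and the call was lost with glmTreat (adjusted p = 0.17). Unstimulated *Prep*-/- cells, at 4820 ± 763 (SD, n = 3), thus overlapped with M1 cells of both genotypes, which stood at 4493 ± 535 in *Prep*-/- and 4294 ± 186 in *Prep*+/- M1. Below them, *Prep*-/- M2 (3181 ± 718), *Prep*+/- M0 (2013 ± 195) and *Prep*+/- M2 (1772 ± 55.1) were ordered without overlap.

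IRF4, the PU.1 partner linked to alternative activation downstream of IL-4, was scarce in M0 and rose in the *Prep*-/- cells. Control M0 libraries had 38.6, 36.7 and 42.4 normalized counts, and knockout M0 libraries had 158, 120 and 121. No library of one genotype reached the other, and the log2 fold change was 1.75 (SE 0.22, edgeR adjusted p = 1.45e-05). With LPS there were 2, 0 and 0 raw counts in controls, against 1, 5 and 1 in knockout cells, too few to compare the genotypes. M2 controls had 953, 1111 and 916 normalized counts and M2 knockout cells 1140, 1223 and 1520, which did not overlap, and the log2 fold change of 0.38 did not pass the test (SE 0.18, edgeR adjusted p = 0.139). Apart from the pair in M1, the group means were ordered without overlap, from 1294 ± 200 in *Prep*-/- M2 and 994 ± 104 in *Prep*+/- M2 to 133 ± 21.5 in *Prep*-/- M0 and 39.2 ± 2.89 in *Prep*+/- M0 (SD, n = 3).

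Polarization was compared within each genotype, where the M1 and M2 comparisons share the M0 libraries. In M1 against M0, *Prep*+/- cells had 4 of the 8 genes higher (*Irf1*, *Irf7*, *Irf8* and *Irf9*) and 1 lower (*Irf4*), where 16.7% of all genes were higher and 20.9% lower. In *Prep*-/- cells 2 were higher (*Irf1* and *Irf7*) and *Irf4* was lower, where 20.9% were higher and 21.0% lower. *Irf7* rose 86.8-fold in *Prep*+/- (log2 fold change 6.44, SE 0.43, edgeR adjusted p = 4.78e-09) and 26-fold in *Prep*-/- cells (log2 fold change 4.70, SE 0.39, edgeR adjusted p = 5.78e-08). *Irf8* rose 2.13-fold in *Prep*+/- cells (log2 fold change 1.09, SE 0.15, edgeR adjusted p = 1.51e-05), and in *Prep*-/- cells its log2 fold change was -0.10 (edgeR adjusted p = 0.585). For *Irf9* the log2 fold change was 0.83 in *Prep*+/- (edgeR adjusted p = 5.42e-05) and 0.34, under the fold change minimum, in *Prep*-/- cells (edgeR adjusted p = 0.0349). *Irf1* rose by 0.74 on the log2 scale in *Prep*+/- (edgeR adjusted p = 0.031) and by 0.70 in *Prep*-/- cells (edgeR adjusted p = 0.0336), where the libraries of M0 and M1 overlapped. These *Irf1* calls were unstable, with an adjusted p of 0.0536 to 0.0882 when any 1 of the 6 *Prep*+/- libraries was left out, and of 0.142, 0.104, 0.267 and 0.0596 without *Prep*-/- M0 replicate 2, M0 replicate 3, M1 replicate 1 or M1 replicate 3. *Irf4* went from 134 counts in the 3 *Prep*+/- M0 libraries to 2 in M1, a ratio of 49.0 (exact 95% interval 13.3 to 409), and from 416 to 7 in *Prep*-/- cells, a ratio of 52.4 (25.2 to 131), intervals that cover counting error only.

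In M2 against M0, *Prep*+/- cells had 2 of the 8 genes higher (*Irf1* and *Irf4*) and none lower (1 at an unadjusted p under 0.05 with edgeR, 0 called by DESeq2), where 6.09% of all genes were higher and 6.77% lower. *Prep*-/- cells had the same 2 higher and *Irf7*, *Irf8* and *Irf9* lower, where 14.7% were higher and 15.5% lower. *Irf4* rose 25.2-fold in *Prep*+/- (log2 fold change 4.66, SE 0.23, edgeR adjusted p = 3.88e-10) and 9.75-fold in *Prep*-/- cells (log2 fold change 3.29, SE 0.20, edgeR adjusted p = 3.13e-09). *Irf1* rose by 1.35 on the log2 scale in *Prep*+/- (edgeR adjusted p = 0.00202) and by 1.04 in *Prep*-/- cells (edgeR adjusted p = 0.00506), the latter with overlapping libraries and without a call when only the libraries compared were fitted (edgeR adjusted p = 0.0512). *Irf7* fell 5.10-fold in *Prep*-/- cells (log2 fold change -2.35, SE 0.36, edgeR adjusted p = 7.03e-05) and had a log2 fold change of 0.11 in *Prep*+/- cells (edgeR adjusted p = 0.861). The log2 fold change of *Irf9* was -1.18 in *Prep*-/- (edgeR adjusted p = 2.56e-06) and -0.33 in *Prep*+/- cells (edgeR adjusted p = 0.0944). That of *Irf8* was -0.60 in *Prep*-/- cells (edgeR adjusted p = 0.00423), close to the fold change minimum, and it was not called without *Prep*-/- M0 replicate 1 (-0.49) or M2 replicate 3 (-0.43). *Irf2*, *Irf3* and *Irf5* were not called in any of the 4 polarization comparisons.

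**Figure D3:**
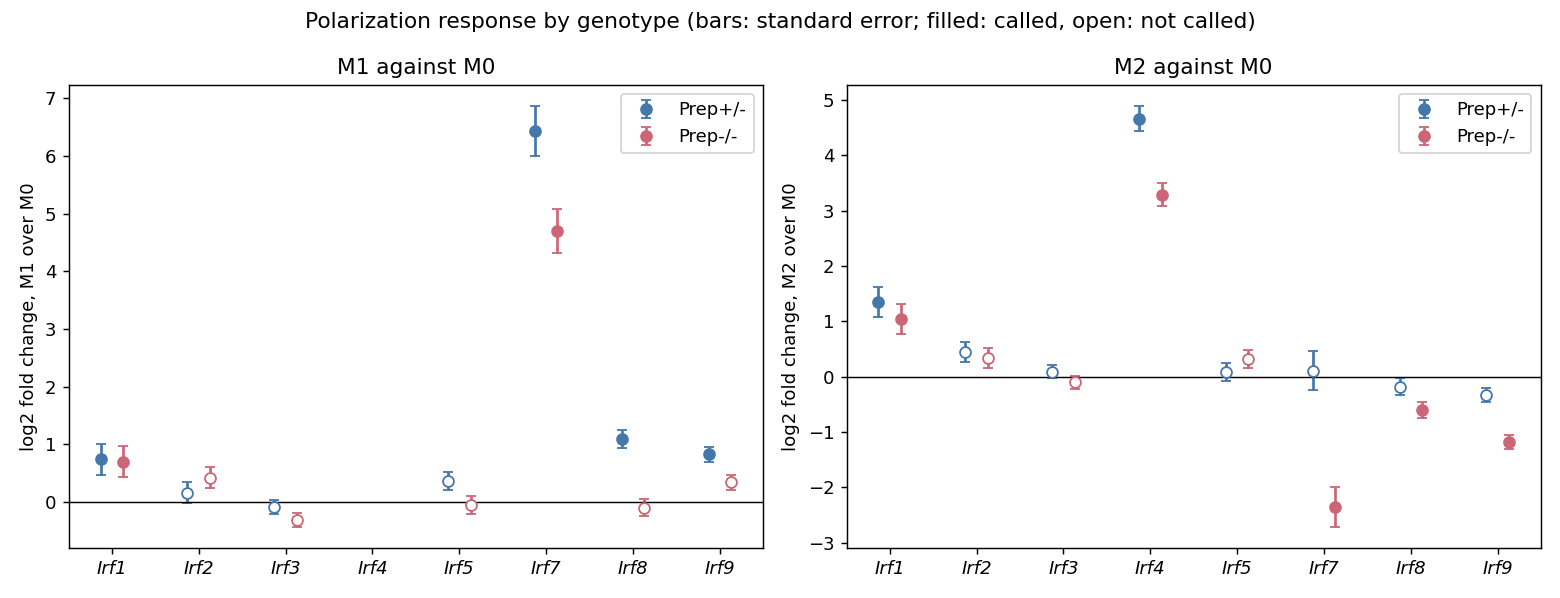
Log2 fold change of M1 over M0 (left) and of M2 over M0 (right) for each gene in *Prep*+/- (blue) and *Prep*-/- (red) cells, with standard errors as bars, filled where called and open where not, and *Irf4* in M1 left out for its counts of 5 or fewer. The red point lay below the blue one for *Irf7* and *Irf8* in M1 (4.70 and -0.10 against 6.44 and 1.09) and for *Irf4*, *Irf7* and *Irf9* in M2 (3.29, -2.35 and -1.18 against 4.66, 0.11 and -0.33).

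Whether the knockout effect differed between states was tested as an interaction, called at an edgeR adjusted p under 0.05. Between M1 and M0 it was called for 2 of the 8 genes, where 24.6% of all genes were called, so that this count is at the background. The difference was -1.74 for *Irf7* (SE 0.48, edgeR adjusted p = 0.0162) and -1.19 for *Irf8* (SE 0.21, edgeR adjusted p = 0.00102), which means a smaller knockout effect in M1 than in M0. Between M2 and M0 it was called for 3 of the 8 genes, where 9.64% of all genes were called. These were *Irf4* at -1.37 (SE 0.29, edgeR adjusted p = 0.00855), *Irf7* at -2.46 (SE 0.50, edgeR adjusted p = 0.00687) and *Irf9* at -0.85 (SE 0.19, edgeR adjusted p = 0.00997). For *Irf1* the interaction was -0.04 in M1 (SE 0.38, edgeR adjusted p = 0.957) and -0.32 in M2 (SE 0.38, edgeR adjusted p = 0.64), neither of which passed the test. The M1 and M2 interactions share the M0 libraries, so that they are not independent of each other.

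Levels of different members were compared only per kilobase of canonical transcript. Of the summed level of the 8 genes, *Irf7* held 81.2% to 81.3% in *Prep*+/- M1 and 77.1% to 80.5% in *Prep*-/- M1. In *Prep*+/- M0 it held 5.40% to 7.51%, and in *Prep*-/- M0 11.8% to 17.4%. *Irf5* held the largest share in *Prep*+/- M0 (40.6% to 45.0%), *Prep*-/- M0 (28.7% to 34.0%) and *Prep*+/- M2 (33.4% to 41.0%). In *Prep*-/- M2 *Irf1* held 18% to 36.3% and *Irf5* 28.4% to 47.9%, which overlapped. *Irf4* did not exceed 5.15% in any library, and this was in M2.

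**Figure D4:**
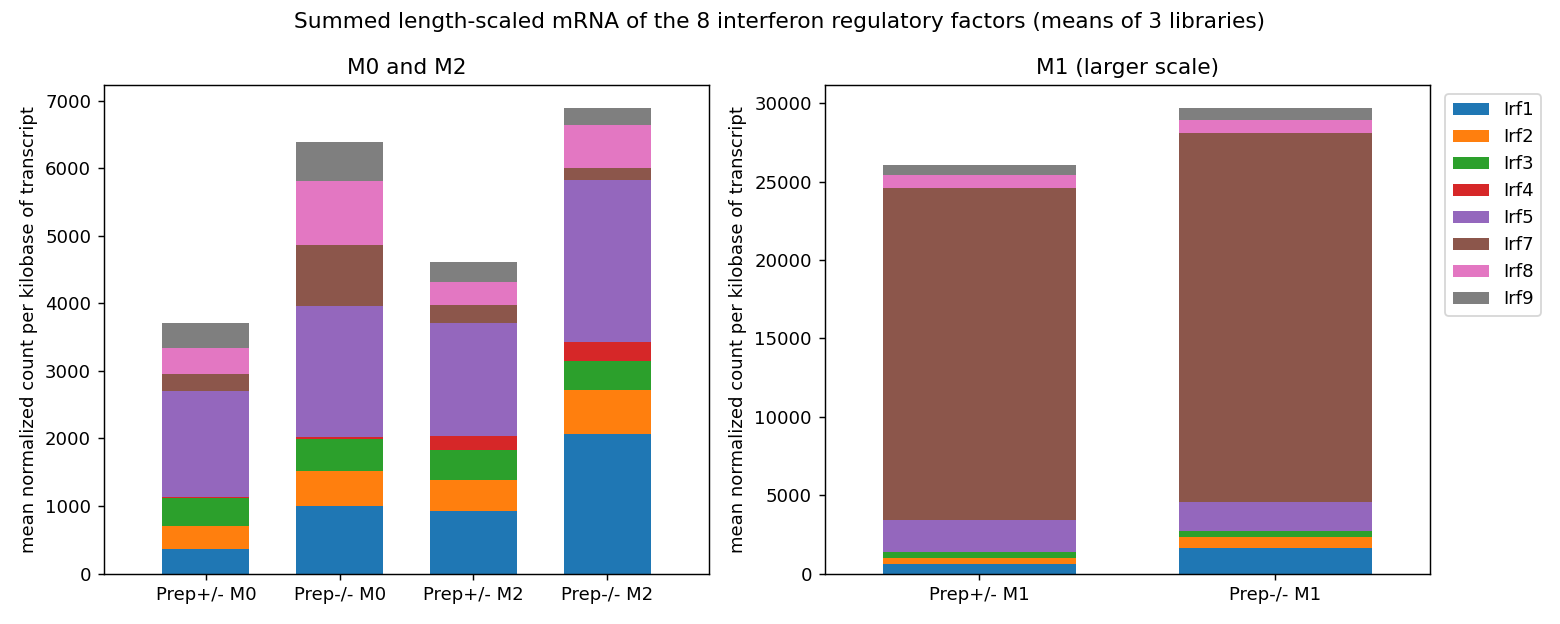
Mean normalized count per kilobase of canonical transcript, stacked over the 8 genes, in M0 and M2 (left) and in M1 (right, with a larger scale), each bar being the mean of 3 libraries. *Irf7* fills most of both M1 bars (21182 ± 902 in *Prep*+/- and 23484 ± 2849 in *Prep*-/-, SD), and *Irf5* is the largest block in *Prep*+/- M0 (1578 ± 51.4).

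The genes around the IRFs were followed as 8 lists, whose counts stand beside shares over all genes of 15.4% higher and 17.2% lower for unstimulated cells, 12.3% and 10.2% for M1, and 6.37% and 9.82% for M2. Upstream, 12 of 21 sensing genes were higher in the knockout in M0, 7 in M1 and 4 in M2. Each state had 1 lower gene. The medians over the list were 0.80, 0.46 and 0.31 on the log2 scale, beside 0.02, 0.04 and 0.03 over all genes tested. *Tlr9*, the endosomal DNA sensor, had the largest rise in all 3 states, from 82.5 ± 29.4 to 470 ± 310 in M0 (log2 fold change 2.51, edgeR adjusted p = 0.00189), and by 3.33 in M1 (edgeR adjusted p = 0.000908) and 2.48 in M2 (edgeR adjusted p = 0.0134). *Cgas*, the cytosolic DNA sensor, fell in M0 (log2 fold change -1.36, edgeR adjusted p = 0.000131) and M2 (log2 fold change -0.98, edgeR adjusted p = 0.00454) but rose in M1 (log2 fold change 0.61, edgeR adjusted p = 0.0375), and its interaction with M1 was called (1.97, edgeR adjusted p = 0.00039). *Cd14*, the LPS co-receptor, rose in M0 (log2 fold change 0.85, edgeR adjusted p = 0.00156) and fell in M1 (log2 fold change -0.93, edgeR adjusted p = 0.00176), with a called interaction of -1.78 (edgeR adjusted p = 0.000282). *Tbk1*, the kinase that phosphorylates IRF3, stayed under the fold change minimum with log2 fold changes of 0.34, 0.39 and 0.42 in M0, M1 and M2 (edgeR adjusted p = 0.0259, 0.0171 and 0.0155).

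Of 11 interferon ligand, receptor, JAK and STAT genes, 7 were called higher in *Prep*-/- M0, 6 in M1 and none in M2. In M2, 6 were higher at an unadjusted p under 0.05 with edgeR, and DESeq2 also called 0. None was lower in any state (0 by either count), and the medians were 0.67, 0.59 and 0.33. *Ifnb1*, which encodes interferon beta, had no counts in any *Prep*+/- M0 library and 2, 0 and 0 counts in *Prep*-/- M0. In M1, controls had 14.8, 5.95 and 5.13 normalized counts, against 85.8, 11.7 and 43.1 in knockout cells, with 1 *Prep*-/- library inside the control range (log2 fold change 2.40, SE 0.75, edgeR adjusted p = 0.0286). It had no counts in M2, the limit of detection being 3 counts per library. *Stat2* rose by 0.97 on the log2 scale in M0 (edgeR adjusted p = 0.00122) and by 1.31 in M1 (edgeR adjusted p = 0.00031), and had a log2 fold change of 0.33 in M2 (edgeR adjusted p = 0.274). *Ifngr1*, a chain of the interferon gamma receptor, had the largest rise of the list in M0 (log2 fold change 1.2, edgeR adjusted p = 2.06e-06).

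Downstream, 16 of 17 tested ISGF3 targets were higher in *Prep*-/- M0 and none lower, with a median log2 fold change of 1.66 (0.54 in M1 and -0.39 in M2). The exception was *Oas3* at 0.46 (edgeR adjusted p = 0.151). *Ifit3* had the largest rise, from 133 ± 59.3 to 1790 ± 931 (log2 fold change 3.75, SE 0.46, edgeR adjusted p = 1.07e-05), and *Usp18*, the enzyme that restrains interferon receptor signalling, rose by 1.79 on the log2 scale (edgeR adjusted p = 0.000118) and is counted among the negative regulators too. In M1 6 of the 17 were higher, led by *Rsad2* (log2 fold change 3.49, edgeR adjusted p = 0.000116), and none was lower. In M2 1 of the 17 was higher and 2 were lower, close to the shares over all genes. The higher gene was *Ifitm3* (log2 fold change 0.76, edgeR adjusted p = 0.0142), and the lower genes were *Oas3* and *Oasl1*. *Oasl1* fell by the most (log2 fold change -1.44, edgeR adjusted p = 0.0424). It had risen in M0 (log2 fold change 1.66, edgeR adjusted p = 0.00236) and M1 (log2 fold change 1.18, edgeR adjusted p = 0.0113). From M0 to M1 all 17 rose in both genotypes, with medians of 4.24 in *Prep*+/- and 3.34 in *Prep*-/- cells. Over all genes, 16.7% were higher in *Prep*+/- and 20.9% in *Prep*-/- cells. From M0 to M2, 1 was higher and 2 were lower in *Prep*+/- cells (median -0.36), beside 6.09% and 6.77% of all genes. In *Prep*-/- cells 15 were lower (median -2.60), beside 15.5% of all genes. The interaction between knockout and M2 polarization was called below 0 for 16 of the 17, and for 539 of all 12021 genes. The *Prep*-/- M0 libraries enter the M0 knockout comparison, these *Prep*-/- polarization comparisons and the interaction, which are therefore not independent. Of the markers named above, *Bst2* is on this list too.

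Among 15 tested IRF1-linked genes, 12 were higher in *Prep*-/- M0, 7 in M1 and 8 in M2, and 1 was lower, in M1. Their median log2 fold changes were 1.23, 0.66 and 0.84. The list holds genes of antigen presentation, of guanylate-binding proteins, and of cytokines and a cytokine-binding protein. *Ciita*, the master regulator of MHC class II genes, rose most in M0 (log2 fold change 4.69, edgeR adjusted p = 7.71e-06), *Gbp5* in M1 (log2 fold change 2.22, edgeR adjusted p = 0.000313) and *Gbp2* in M2, from 354 ± 52.0 to 3272 ± 1287 (log2 fold change 3.21, edgeR adjusted p = 1.94e-05).

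**Figure D5:**
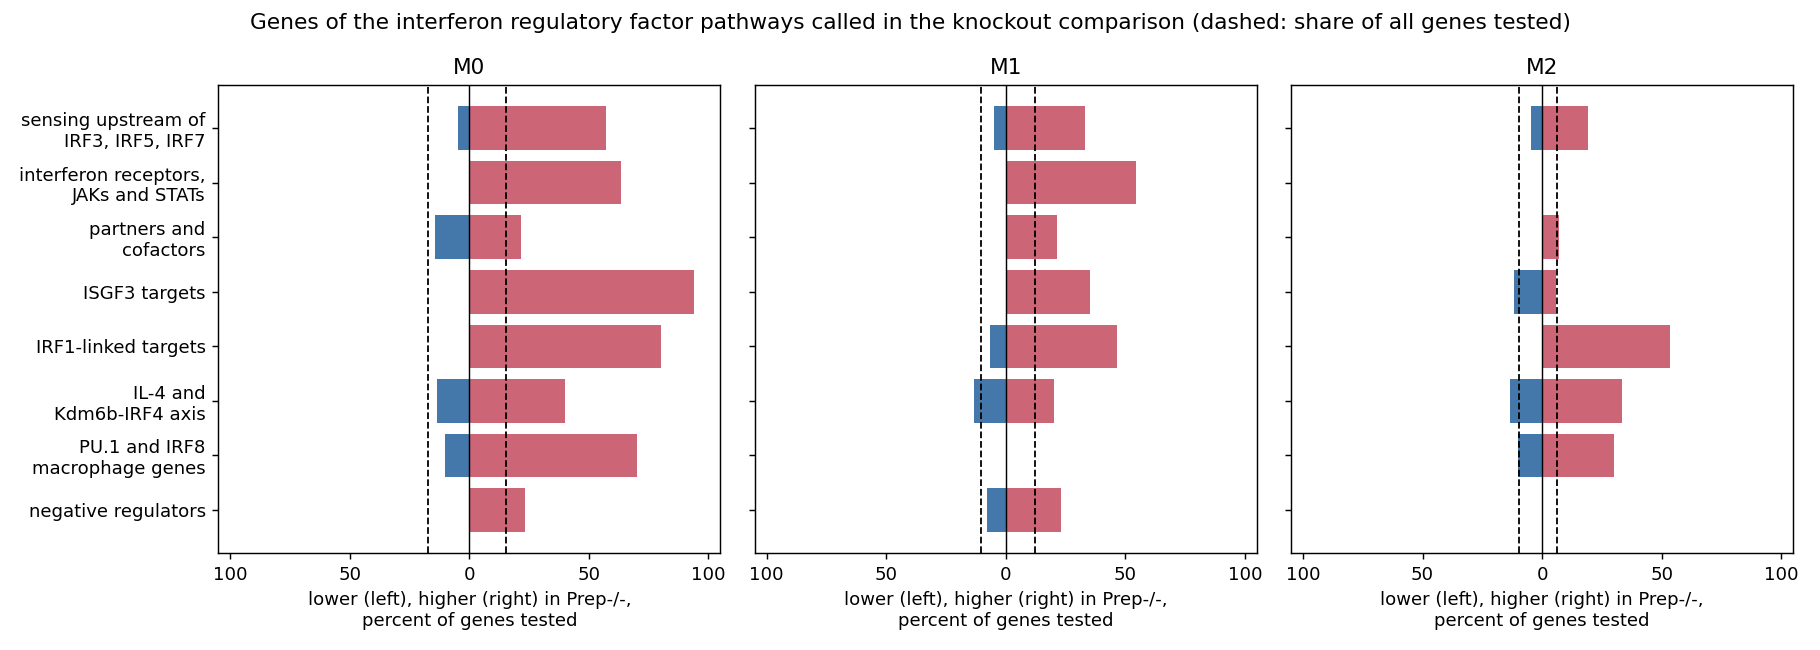
Percent of the tested genes of each list called higher (red, to the right) and lower (blue, to the left) in *Prep*-/- cells, per state, with the share of all genes tested as dashed lines. ISGF3 targets reach furthest in M0 (16 of 17) and IRF1-linked targets furthest in M2 (8 of 15).

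Of 10 genes linked to PU.1 and IRF8 in macrophages, 7 were higher and 1 lower in *Prep*-/- M0, and in M2 3 were higher and 1 lower (medians 0.87 and 0.26). With edgeR none was called in M1 (median 0.06), where 2 were higher and 1 lower at an unadjusted p under 0.05 and DESeq2 called 0. *Csf1r*, the M-CSF receptor, rose most in M0 (log2 fold change 1.39, edgeR adjusted p = 4.20e-05), *Cybb*, a subunit of the phagocyte oxidase, in M2 (log2 fold change 1.04, edgeR adjusted p = 0.000698), and *Cx3cr1*, the fractalkine receptor, fell in M0 (log2 fold change -1.68, edgeR adjusted p = 7.92e-05). In M2 *Cx3cr1* was also called lower (edgeR adjusted p = 0.00731), near the floor at mean normalized counts of 8.44 in *Prep*+/- and 0.338 in *Prep*-/- cells. This list is not separate from the macrophage markers summed above, since *Csf1r*, *Itgam*, *Fcgr1* and *Cd68* are in both. Among 14 tested DNA-binding partners and cofactors, knockout cells had 3 higher and 2 lower in M0, 3 higher in M1 and 1 higher in M2 (medians 0.42, 0.10 and 0.12), close to the shares over all genes. *Spi1*, which encodes PU.1, was under the fold change minimum with log2 fold changes of 0.37 in M0 (edgeR adjusted p = 0.0175), -0.14 in M1 (edgeR adjusted p = 0.356) and 0.12 in M2 (edgeR adjusted p = 0.485). *Batf2* had the largest rise of the list in each state, at 1.29, 1.13 and 0.76 on the log2 scale (edgeR adjusted p = 0.000118, 0.00044 and 0.0133), and *Irf2bpl* fell in M0 (log2 fold change -1.17, edgeR adjusted p = 0.0047). The dendritic cell markers *Tcf4* and *Batf3* are among these partners too.

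Of 15 tested genes of IL-4 signalling and the Kdm6b-IRF4 axis, 6 were higher in *Prep*-/- M0, 3 in M1 and 5 in M2, with 2 lower genes in each state (medians -0.03, 0.06 and 0.40). The lower genes in each state and the higher genes in M1 were close to the shares over all genes. *Mgl2*, a lectin of alternatively activated macrophages, rose most in M0 (log2 fold change 2.46, edgeR adjusted p = 4.71e-05) and *Pparg*, a lipid-sensing nuclear receptor, in M1 (log2 fold change 1.34, edgeR adjusted p = 0.000367). In M2, *Chil3* rose from 21873 ± 3262 to 66599 ± 17591 (log2 fold change 1.61, edgeR adjusted p = 0.00133), while *Arg1*, the arginine-degrading enzyme, fell from 45171 ± 3351 to 9180 ± 1851 (log2 fold change -2.30, edgeR adjusted p = 1.79e-05). *Myc* fell by the most in M0 (log2 fold change -3.76, edgeR adjusted p = 0.000175) and M1 (log2 fold change -2.56, edgeR adjusted p = 0.00376). Of 13 negative regulators of IRF and interferon signalling, 3 were higher in M0 and 3 in M1, where 1 was lower (medians 0.24 and 0.18). In M2 edgeR called none (median 0.16), with 3 higher at an unadjusted p under 0.05, and DESeq2 also called 0. *Atf3* rose most in M1 (log2 fold change 1.21, edgeR adjusted p = 0.00132).

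The genes whose pattern was most like each member were ranked by Pearson's r of log2 CPM over the 18 libraries among 9600 genes with a mean of at least 5 CPM. The libraries fall into 6 groups, and all points of a group share its treatment and genotype. For *Irf7* they were *Isg15* (0.994), *Xaf1* (0.992) and *Slfn1* (0.992), and for *Irf9* they were *Oas2* (0.984), *Sirpb1b* (0.968) and *Atxn7l1* (0.967). *Irf4* came closest to *Itgb3* (0.989), *Matk* (0.984) and *Cebpa* (0.979), and *Irf8* to *Mllt6* (0.976), *Tnfrsf14* (0.971) and *Arl5c* (0.970). For *Irf1* the closest were *Maea* (0.944), *Sh3glb1* (0.939) and *Crtc2* (0.932), for *Irf2* *Ccdc112* (0.949), *Rnf115* (0.941) and *Tet2* (0.936), for *Irf5* *Golga7* (0.868), *Pttg1ip* (0.818) and *Fbxo28* (0.804), and for *Irf3* *Rhbdd3* (0.874), *Mrps35* (0.849) and *Eri3* (0.840). Between members, r was highest for *Irf1* with *Irf2* (0.899) and *Irf7* with *Irf9* (0.887), and lowest for *Irf4* with *Irf7* (-0.889) and *Irf4* with *Irf9* (-0.851). With Spearman's rho in place of r, *Xaf1*, *Tet2* and *Golga7* were among the 3 closest again and the others were not.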

How the data were processed

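Per the labels and the paper's methods, poly(A) RNA of BMDMs was sequenced from 18 libraries. The authors trimmed reads with Trimmomatic 0.36, aligned them to GRCm39 with HISAT2 2.2.1.0 and made counts with stringtie2. They deposited whole-number counts per gene symbol, not normalized, and 0 sample columns were left unmatched. Libraries were made with the TruSeq Stranded mRNA kit and the aligner was run at its default settings. The annotation release and the strand and multimapping settings of the counting step are not given in the sources used here.

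The members and gene lists were chosen with earlier results of these data known. Genes were filtered with filterByExpr, scaled by TMM (factors 0.818 to 1.2) and tested with edgeR 4.0.16 (limma 3.58.1, R 4.3.3), glmQLFit and glmQLFTest, 1 coefficient per group, with Benjamini-Hochberg adjustment over 12021 genes. The standard error is the log2 fold change divided by the square root of the quasi-likelihood F. Log2 CPM used a prior count of 2. DESeq2 1.42.0 and the settings of the closing section were alternatives. Named were all members, *Spi1*, *Stat2*, *Ifnb1* and *Tbk1*, in each list and knockout comparison the called genes with the largest rise and fall (mean of at least 5 CPM), and the 3 genes most like each member, except that some genes this rule names are not reported here. *Oas3*, *Rnf31*, *Gm12216* and single marker genes were named after their values were seen. Of the list genes, *Spib*, *Ido1* and *Ccl17* had too few counts to be tested. *Ikzf3*, *Mx1* and *Mx2* were not found in the count table by these symbols.

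Positions and promoters were taken from GRCm39 with GENCODE M39, which need not be the authors' release. Scripts were tested on simulated data. No pair of replicates agreed within sampling noise, the lowest chi-square per degree of freedom being 9.5. A comparison met the criterion for pairing where deviations from the group means of equal replicate numbers correlated at over 0.1 for all 3 numbers. This held, from these correlations alone, for the M2 knockout comparison (0.249, 0.255 and 0.462) and for M1 against M0 in *Prep*-/- cells (0.201, 0.169 and 0.259). The main tests used no pairing in any comparison, these included, and the replicate block was run as an alternative only. P-values measure the spread between libraries, since the labels do not say whether replicates came from separate animals. Figures were drawn with matplotlib 3.10.9.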

Additional observations from a re-analysis of the deposited data

Results flagged for a closer look

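Whether the knockout effect differed between states was tested as a difference of differences. Between M1 and M0, 2 of the 8 IRF genes were called, a share at the background of 24.6% of all genes, and the log2 difference was -1.74 for *Irf7* (edgeR adjusted p = 0.0162) and -1.19 for *Irf8* (edgeR adjusted p = 0.00102). Between M2 and M0, 3 of the 8 were called, where 9.64% of all genes were, and the difference was -1.37 for *Irf4* (edgeR adjusted p = 0.00855), -2.46 for *Irf7* (edgeR adjusted p = 0.00687) and -0.85 for *Irf9* (edgeR adjusted p = 0.00997). For *Irf7* in M1, the adjusted p ranged from 0.00215 to 0.0487 over 19 alternatives, with the difference between -1.91 and -1.34. The other 4 differences kept an adjusted p of at most 0.0329 over theirs.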

How the results depend on the processing

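No call of a member changed direction in 1086 refits of its log2 fold change, while 29 calls were lost and 10 gained. With glmTreat, *Irf2* and *Irf9* lost their knockout calls in M0 (adjusted p = 0.59 and 0.32), and 1 member was higher in the knockout in M1 and 0 in M2. In *Prep*-/- cells, 1 was then higher in each polarization comparison, and also when only the libraries compared were fitted. Leaving out each library in turn gave 1 to 2 members higher for M1 over M0 in *Prep*-/- cells. A replicate block in the libraries compared left 1 member higher for M2 over M0 in *Prep*-/- cells (without *Irf1*, edgeR adjusted p = 0.0609) and 5 for the knockout in M0 (without *Irf2*, edgeR adjusted p = 0.0715). It added *Irf9* to the M1 interaction (edgeR adjusted p = 0.0409), as did 7 other settings of 19, and the block changed no other call of a member. Neither of the comparisons that lost a call met the criterion for pairing. *Irf4* in M1 was called without *Prep*+/- replicate 1 (edgeR adjusted p = 0.0378), on 5 counts or fewer per library. The causes were not tested.

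Over all genes, higher and lower calls went with glmTreat from 1848 and 2065 to 837 and 1133 (knockout, M0), from 1476 and 1224 to 361 and 273 (M1), and from 766 and 1181 to 228 and 495 (M2). For M1 over M0 they went from 2011 and 2518 to 1313 and 1643 in *Prep*+/- and from 2518 and 2530 to 1627 and 1585 in *Prep*-/- cells, and for M2 over M0 from 732 and 814 to 374 and 298 and from 1767 and 1869 to 951 and 947. Without *Prep*-/- M1 replicate 1 the M1 knockout counts were 961 and 781, and with the block 1143 genes were lower for M2 over M0 in *Prep*-/- cells. The M2 interaction had 620 above and 539 below 0, with 973 above by DESeq2, 266 and 317 in the libraries compared, 317 above with the block, and down to 277 and 239 without 1 *Prep*+/- library (M0 replicate 2).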
